A study of Homo sapiens with 4 samples.

Results

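Accessibility was examined around 10 autosomal genes of the germline, DAZL, DDX4, SYCP3, MAEL, HORMAD1, BRDT, ASZ1, TDRD1, STK31 and CTCFL, which in most somatic cells are kept silent by DNA methylation. Each gene was represented by a window of 45 to 160 kb on the hg19 build meant to hold the gene and its flanks, which could not be checked without hg19 gene positions. Every listed ATAC-seq peak that touched a window was taken, with no use of its height. The windows covered 890 kb in all. They held 42 peaks in untreated replicate 1, 49 in untreated replicate 2, 69 in treated replicate 1 and 45 in treated replicate 2. When overlapping peaks of different lists were joined, the windows contained 90 regions, of 373425 on chromosomes 1 to 22 and X.

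The cells were BCPAP, an established human thyroid cancer line, and chromatin was profiled by ATAC-seq, in which a transposase inserts adapters into open DNA and sequenced fragments pile up there. 2 libraries came from untreated cells and 2 from cells given 5-azacytidine, a nucleoside drug that binds up the DNA methyltransferases and lowers CpG methylation in dividing cells. The labels give no dose or duration, and they do not say whether replicates were separate cultures, so the spread between replicates may be technical. The identity of the cells was not checked against marker genes, since no hg19 gene positions were used. Over these chromosomes the untreated lists had 221110 and 223345 entries, and the treated lists 259572 and 245142. Peak height is given below as summit coverage, the number of overlapping fragments at the highest point, which was at least 4 in every list. Treated replicate 1 had lower peaks than the other libraries: its median over the 105414 regions that every list held was 11, compared with 16 in treated replicate 2 and with 23 and 18 in the untreated libraries.

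Germline genes are a well-known class of methylation targets. Many have CpG-rich promoters that acquire methylation when the embryo forms its somatic lineages, and several are transcribed again in tumours or after demethylating drugs. Their promoters are also bound by a Polycomb complex that contains the E-box binding pair MGA and MAX and the factor E2F6. The 10 genes fall into several roles. DAZL is an RNA-binding protein and DDX4 an RNA helicase of germ cells, both needed for germ cell development. SYCP3 and HORMAD1 build the chromosome axis of meiosis. MAEL, ASZ1 and TDRD1 act in the piRNA pathway, which silences transposons. BRDT is the testis bromodomain protein that reads acetylated histones, CTCFL is the testis paralogue of the insulator protein CTCF, and STK31 is a testis protein with tudor and kinase domains.

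The promoters of these genes are shown for the sites on which a demethylating agent can act. RefSeq promoters on GRCh38.p14, 250 bases before to 50 bases after a transcription start, were found for 9 of the 10 genes, with 15 starts in all, and HORMAD1 had no entry. This is not the build of the peaks, so no promoter was placed among them. Shown here, 5′ to 3′ on the strand of the gene and with each CpG in capitals, are BRDT, whose window had the largest difference in peak number, STK31, whose shared peaks all stood higher after scaling, DAZL, whose window held the largest scaled differences, and SYCP3, whose window held peaks in the treated lists alone. BRDT lies on chr1:91949121-91949420 (plus strand), STK31 on chr7:23709969-23710268 (plus strand), DAZL on chr3:16605374-16605673 (minus strand) and SYCP3 on chr12:101739413-101739712 (minus strand).
BRDT: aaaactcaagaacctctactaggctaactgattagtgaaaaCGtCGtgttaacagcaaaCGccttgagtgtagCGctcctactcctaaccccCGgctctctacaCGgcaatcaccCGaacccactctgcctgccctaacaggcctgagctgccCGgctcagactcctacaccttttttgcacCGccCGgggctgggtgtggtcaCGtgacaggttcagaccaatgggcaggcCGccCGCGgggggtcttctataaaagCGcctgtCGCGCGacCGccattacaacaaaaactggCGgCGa
STK31: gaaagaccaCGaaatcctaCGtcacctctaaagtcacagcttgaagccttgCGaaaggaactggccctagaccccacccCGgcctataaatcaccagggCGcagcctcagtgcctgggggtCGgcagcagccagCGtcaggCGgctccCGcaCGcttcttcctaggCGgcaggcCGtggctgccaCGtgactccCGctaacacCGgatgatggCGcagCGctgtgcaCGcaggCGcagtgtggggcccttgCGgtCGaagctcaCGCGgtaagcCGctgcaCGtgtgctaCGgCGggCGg
DAZL: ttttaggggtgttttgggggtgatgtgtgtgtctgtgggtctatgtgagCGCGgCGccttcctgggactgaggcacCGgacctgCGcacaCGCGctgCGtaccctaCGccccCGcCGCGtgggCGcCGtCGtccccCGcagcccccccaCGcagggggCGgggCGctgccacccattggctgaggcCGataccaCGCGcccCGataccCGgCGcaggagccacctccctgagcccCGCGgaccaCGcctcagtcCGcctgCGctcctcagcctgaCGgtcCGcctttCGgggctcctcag
SYCP3: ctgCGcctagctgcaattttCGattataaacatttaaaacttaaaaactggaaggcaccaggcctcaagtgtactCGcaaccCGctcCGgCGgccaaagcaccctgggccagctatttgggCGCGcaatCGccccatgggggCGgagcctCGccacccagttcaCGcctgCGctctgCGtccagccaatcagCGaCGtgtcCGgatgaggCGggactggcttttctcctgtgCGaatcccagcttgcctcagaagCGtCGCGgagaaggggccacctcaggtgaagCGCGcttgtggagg

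These 4 promoters held 21 CpGs in BRDT, 28 in STK31, 33 in DAZL and 24 in SYCP3, against a median of 14 over all 34961 RefSeq promoters of chromosomes 1 to 22 and X. The ratio of observed to expected CpG was 0.872 in BRDT, 0.875 in STK31, 0.862 in DAZL and 0.88 in SYCP3. Of the 15 promoters of the group, 11 had a ratio of at least 0.6, or 73.3%, as did 49.0% of all promoters. The 4 below it were the 3 listed starts of CTCFL (0.533, 0.531 and 0.1) and the only listed start of DDX4, at 0.12. The highest ratio, 1.12, was at the outer of the 2 listed starts of MAEL. In a list of 30 other genes of meiosis and the piRNA pathway, 26 had an entry, and 26 of their 34 promoters reached 0.6.

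The E-box CACGTG, whose letters are the same on both strands, was present in 7 of the 15 promoters (46.7%). It was in 7.27% of all promoters of this length and 5 of 34 in the list of other germline genes. The listed promoters of BRDT overlap, as do those of TDRD1, so the same E-boxes count more than once. By gene it was in 5 of 9 (55.6%), against 8.79% of all genes and 4 of 26 other germline genes. The genes with it were DAZL, MAEL, BRDT, TDRD1 and STK31. In the BRDT promoter shown above it begins 48 bases before the start, and in STK31 it occurs at 67 bases before and 29 bases after the start. In DAZL it lies in the promoter of the inner start, not the one shown. An E2F motif, TTCCCGC or GCGGGAA on the other strand, was present in 1 promoter of the group, that of ASZ1, against 6.57% of all promoters and 12 of 34 in the other germline genes. No promoter of the group held both. These are matches of letters and no measure of binding. Both motifs hold a CpG, and the promoters compared were not matched for CpG content. The motifs were chosen with the promoter sequences at hand, so these shares are descriptions and test nothing.

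**Figure D1:**
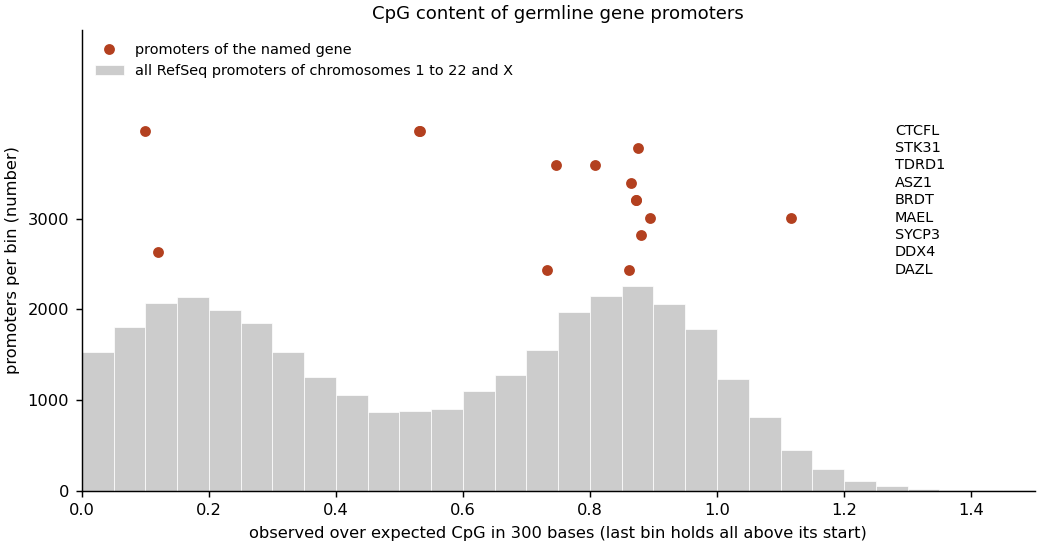
Observed over expected CpG in promoters of 300 bases (x axis): grey bars give the number of RefSeq promoters per bin and red points the listed promoters of each named gene, in rows with no y value. Most points lie between 0.7 and 0.9, while DDX4 and CTCFL lie below 0.6.

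Peak numbers of treated and untreated cells overlapped in 8 of the 10 germline windows. The BRDT window had 7 and 8 peaks in the untreated lists and 18 and 13 in treated replicates 1 and 2. The SYCP3 window had 0 and 0 untreated, and 1 and 1 treated. The other 8 windows overlapped, and in none did both treated lists hold fewer peaks than both untreated lists. Both treated lists exceeded both untreated lists in 2 of 10 windows, a share like the 19.7% of 25899 genomic tiles of 100 kb with a peak in any list. The reverse held in 0 of 10 windows and in 10.2% of tiles. These counts are near the background. For a single window the exact two-sided permutation test could go no lower than p = 0.333, the value it gave for BRDT and for SYCP3. Summed over the windows, the mean was 57 ± 17.0 peaks in treated and 45.5 ± 4.95 in untreated libraries (SD, n = 2 each), and the groups overlapped, with 49 untreated peaks above the 45 of treated replicate 2. Without treated replicate 1 the treated value was 45, just below the untreated mean. Most peaks of that library in the windows were weak, with 45 of 69 at a coverage of 6 or less, against 8 of 42 and 20 of 49 in the untreated lists and 14 of 45 in treated replicate 2.

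**Figure D2:**
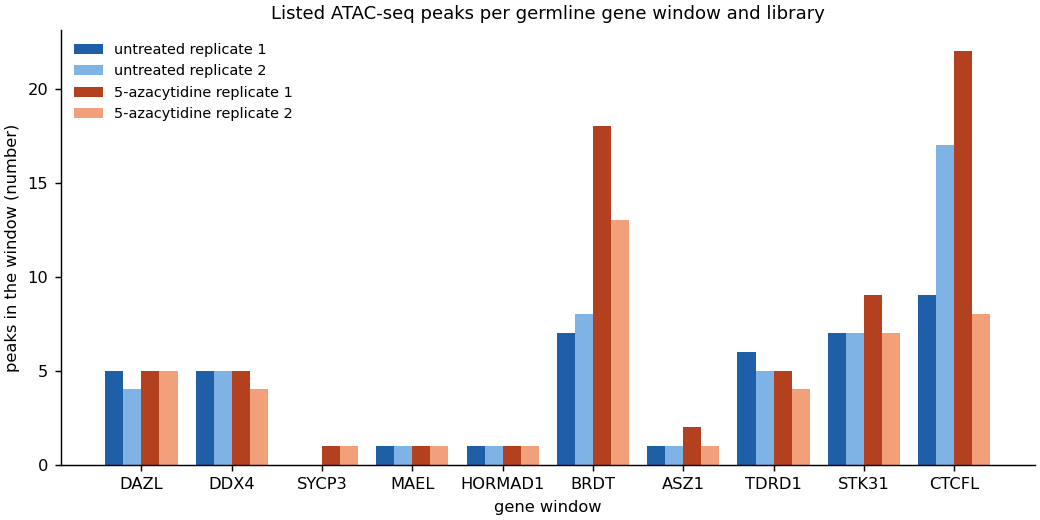
Number of listed peaks (y axis, from 0) in each gene window (x axis), 1 bar per library. Both treated bars exceed both untreated bars for BRDT and SYCP3, and the CTCFL bars differ as much within each group, from 9 to 17 and from 8 to 22, as between groups.

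The windows were unequal in accessibility. The mean over the 4 lists was 18.7 peaks per 100 kb in the CTCFL window, 10.95 in BRDT and 8.64 in DAZL. It was 1.11 in SYCP3, 1.18 in MAEL, 1.25 in ASZ1 and 1.67 in HORMAD1, all below the lower quartile of genomic tiles, 2.75. The median tile had 6.25 peaks and the upper quartile was 12.2, which only CTCFL exceeded.

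The 2 RNA-binding proteins differed in their shared peaks. The DAZL window (chromosome 3, 16610 to 16665 kb) held 5 and 4 peaks in the untreated and 5 and 5 in the treated lists, and 4 of its 6 regions were in all lists. Coverage at 16647810 to 16648415 was 19 in untreated replicate 1 and 7 in untreated replicate 2, and 14 and 23 in the treated pair. That from 16625003 to 16625545 had 20 and 10 untreated, and 18 and 24 treated. In coverage the groups overlapped at both. Each library was then divided by its own median over the regions in all 4 lists. This sets the library medians equal but leaves differences that vary with peak height. On this scale both treated values exceeded both untreated values at both sites, with differences of 1.25 and 1.17 (log2), the largest among the shared regions of the 10 windows. Without untreated replicate 2 they were 0.63 and 0.76. At the other 2 shared DAZL regions the differences had the opposite sign. From 16660152 to 16660752 the coverage was 17 and 19 untreated and 5 and 12 treated, a scaled difference of −0.60, and from 16642685 to 16643209 it was 10 and 9 untreated and 5 and 5 treated, a difference of −0.31. On the scaled values the groups overlapped at both. The DDX4 window (chromosome 5, 55015 to 55130 kb) had 10 regions, of which 6 were in 1 list. Its single shared region, 55117643 to 55118171, was low in all libraries, at 7 and 8 untreated and 9 and 8 treated, with a scaled difference of 0.80, which was 0.40 without untreated replicate 1 and 0.40 without treated replicate 1. Higher DDX4 peaks were seen in untreated replicate 1 alone, with 17, 16 and 14 at 3 regions where the other libraries had at most 7 or no peak.

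The windows of the meiotic axis genes held few regions, 2 for SYCP3 and 1 for HORMAD1. The SYCP3 window (chromosome 12, 102105 to 102150 kb) held no peak in the untreated lists and 1 in each treated list, both at a coverage of 5, where the lowest listed value was 4. The 2 peaks lay next to each other without overlap, 127 bp apart, from 102137291 to 102137790 in treated replicate 1 and from 102137918 to 102138417 in treated replicate 2, so they did not count as a gained region. Neither peak was left when the lists were limited to equal length or to a −log10 q of at least 5, where the SYCP3 window held 0 peaks in all 4 lists. Peaks are numbered in order along each list, and some numbers are skipped, for reasons not stated in the sources. Treated replicate 2 skips a number between the peaks that flank the replicate 1 peak, so absence from its list is less certain there. In the RefSeq gene table CHPT1, an enzyme of phosphatidylcholine synthesis, overlaps SYCP3. In the HORMAD1 window (chromosome 1, 150650 to 150710 kb) there was a single region, 150669450 to 150670063, the tallest on average in all the windows. Its coverage was 91 and 75 untreated, and 25 and 61 treated, so both treated libraries lay below both untreated ones, also after scaling (−0.46). The size of this difference depended on the library, at −0.13 without treated replicate 1 and −0.99 without treated replicate 2. The neighbours of HORMAD1 are GOLPH3L and CTSS, and the region was not assigned to a gene.

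Among the piRNA genes, 1 region was gained, in ASZ1, and 1 lost, in TDRD1. The MAEL window (chromosome 1, 166925 to 167010 kb) held 1 region, 166944458 to 166944995, with a coverage of 12 in both untreated libraries and 6 and 12 in treated replicates 1 and 2. Its scaled difference was 0.12, with overlap, and it changed sign to −0.18 without untreated replicate 1 and to −0.26 without treated replicate 2. ASZ1 (chromosome 7, 116985 to 117085 kb) had no region in all lists. A region from 117041644 to 117042628 was gained, that is, listed in both treated libraries but not in either untreated one, at a coverage of 5 and 7. The peaks behind it shared only 15 bp. Another ASZ1 region, 117025811 to 117026322, had 9 and 6 untreated, 6 in treated replicate 1 and no peak in treated replicate 2. The TDRD1 window (chromosome 10, 115920 to 116010 kb) had 6 and 5 untreated and 5 and 4 treated peaks. Its tallest region, 115932606 to 115934311, had 87 and 67 untreated and 32 and 32 treated, and remained lower after scaling (−0.64), the largest fall among regions whose groups did not overlap. The neighbours of TDRD1 are CCDC186 and VWA2, and this region too was not assigned to a gene. At the other end of the window, the region from 116006541 to 116007122 had 12 and 9 untreated and 9 and 15 treated, a scaled difference of 0.78 without overlap, and a weak region from 116005116 to 116005709, with 5 and 6 untreated, was lost, that is, had no peak in either treated list.

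Among the chromatin regulators, BRDT showed the clearest difference in peak number. The BRDT window (chromosome 1, 92395 to 92500 kb) had a mean of 15.5 ± 3.54 peaks in treated and 7.5 ± 0.707 in untreated libraries (SD, n = 2 each). An equal or greater difference per 100 kb was seen in 5.26% of tiles. BRDT had the largest difference of the 10 windows, and the tiles were not matched for peak number. The share is therefore a description and no p-value. The added peaks were low. Of the 22 regions, 12 were in 1 list, 8 of them in treated replicate 1 and 3 in treated replicate 2, at a coverage of 4 to 9. The 3 gained regions had a coverage of 5 and 6 (92422783 to 92423505), 4 and 7 (92426570 to 92427107) and 8 and 6 (92443930 to 92444450) in treated replicates 1 and 2. At none of them did an untreated list skip a number. The last lay beside a strong region, 92443086 to 92443606, with 57 and 27 untreated and 29 and 29 treated. With an equal number of peaks in each list the window still had 13 and 12 treated against 7 and 8 untreated peaks. With a −log10 q of at least 5 it had 6 and 8 against 6 and 6, so that the groups were no longer apart.

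Of the 6 BRDT regions found in all lists, 3 were higher in treated cells after scaling, against 27.2% of all regions in all lists. The tallest after scaling, 92496323 to 92496840, had a coverage of 49 and 38 untreated and 29 and 38 treated, with a scaled difference of 0.24. The groups did not overlap there, nor at 92407027 to 92407585, with 17 and 15 untreated and 10 and 19 treated (0.40), nor at 92409573 to 92410261, with 19 and 8 untreated and 11 and 16 treated (0.72). Without untreated replicate 1 the first of the 3 was 0.12 and the next 0.19. Without treated replicate 1 the first was 0.12, without treated replicate 2 the next was 0.06, and without untreated replicate 2 the last was 0.19 and the first 0.15. At the other 3 BRDT regions the groups overlapped, with differences from −0.23 to 0.18. A region next to the tallest, 92496844 to 92497356, was lost, with 7 and 11 untreated. Only 3 bp separated the pair, and treated replicate 2 skips a number between the peaks that flank the lost region. The neighbouring protein-coding genes of BRDT are TGFBR3, a co-receptor for TGF-beta, and EPHX4, an epoxide hydrolase.

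CTCFL had the most peaks and the largest spread between replicates. Its window (chromosome 20, 56045 to 56120 kb) held 9 and 17 untreated and 22 and 8 treated peaks. Of its 31 regions, 17 were in 1 list, 11 of these in treated replicate 1 and 6 in untreated replicate 2. The 2 gained regions were at or near the lowest listed heights, 5 and 6 (56068392 to 56069177) and 5 and 4 (56076698 to 56077352). Untreated replicate 1 skips a number between the peaks that flank each of them. For the first, these flanks belong to the regions that start at 56048199 and 56069920. Where between its flanks a skipped peak lay is not known. The lost region, 56084621 to 56085183, had 10 and 5 untreated. The strongest shared region after scaling, 56073424 to 56074268, had 11 and 8 untreated and 13 and 13 treated. It was the only shared region of the 10 windows where both treated libraries exceeded both untreated ones before scaling, and its scaled difference was 1.09.

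In the STK31 window the shared peaks all differed in 1 direction after scaling. In its window (chromosome 7, 23730 to 23890 kb) 6 of 7 regions were in all lists, with 7 and 7 untreated and 9 and 7 treated peaks. The tallest, 23751921 to 23753274, had a coverage of 41 and 27 untreated and 24 and 34 treated. Next to it, 23753412 to 23753941 had 32 and 17 untreated and 27 and 34 treated, and 23799661 to 23800182 had 33 and 14 untreated and 21 and 30 treated. The coverage of the groups overlapped at all 3. After scaling, the treated pair exceeded the untreated pair in all 6 regions, with differences from 0.36 to 0.99. The other 3 were 23735795 to 23736924 (16 and 10 untreated, 8 and 14 treated), 23754674 to 23755267 (6 and 8 untreated, 5 and 11 treated) and 23762054 to 23762801 (6 and 6 untreated, 6 and 9 treated). Over all regions in all lists 27.2% were higher in this way. In the lowest quartile by mean coverage, where those at 23754674 and 23762054 lie, it was 46.1%. The differences stayed above 0 in all 6 with the authors' score as the height. There 4 were higher without overlap, against 24.3% of all shared regions. Leaving out any 1 library also kept all 6 above 0, which follows almost by definition from groups that did not overlap. With fewer libraries, where overlap is less likely, 4 to 6 were higher without it, against 35.1% to 38.3% of all. With equal list lengths 4 of 6 were higher without overlap, against 25.7% of all. When joined peaks had to share 50% of their length, it was 5 of 6, against 25.3%. Scaled instead by the background coverage, which takes out no library-wide difference in height, 4 of 6 were above 0 and the groups overlapped at all 6. The sizes moved with the library: without untreated replicate 2 the difference was 0.19 at the tallest region, 0.63 at its neighbour, 0.31 at 23799661 and 0.11 at 23735795. Without treated replicate 2 it was 0.08 at 23735795 and 0.27 at 23754674, and without untreated replicate 1 it was 0.21 at the latter. Regions of 1 window share their surroundings and are not replicates. Merging peaks up to 150 bp apart joined the tallest region with its neighbour and left 5 regions, all 5 higher, against 27.1% of all. The neighbours of STK31 are FAM221A and NPY, and the regions were not assigned to a gene.

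**Figure D3:**
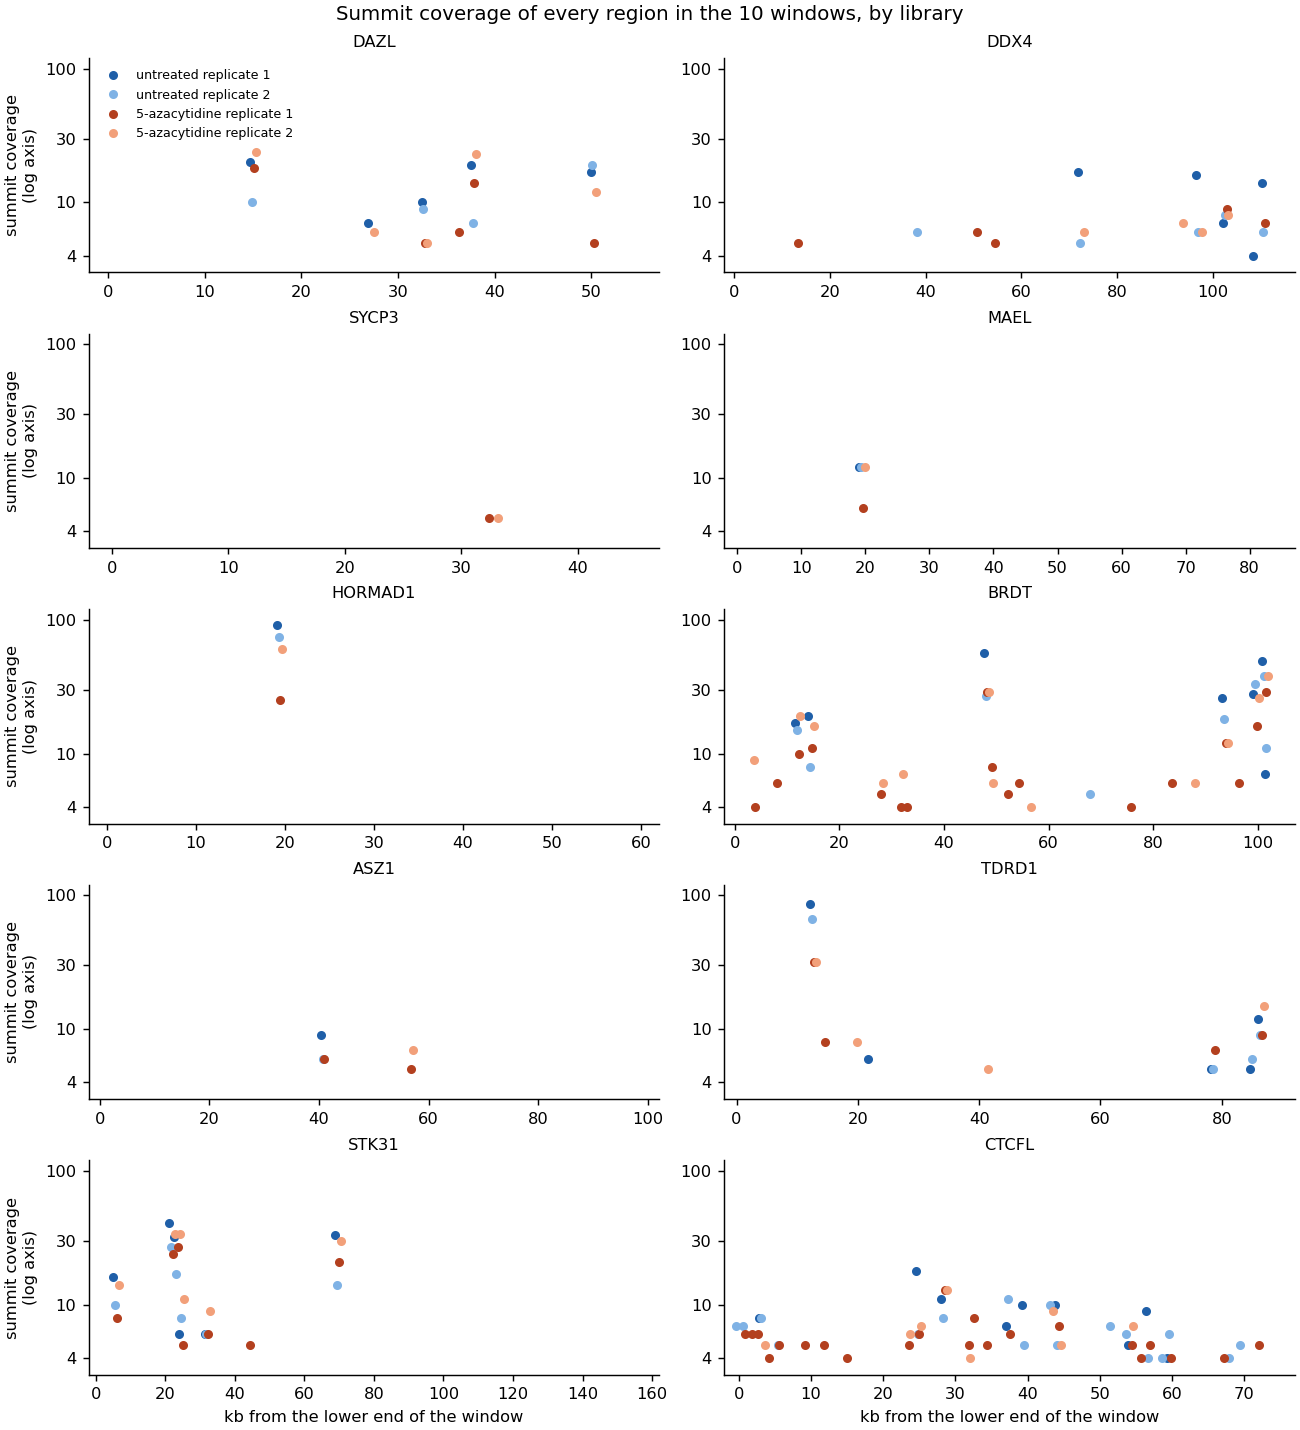
Summit coverage (y axis, log scale) of every region in each window, by distance in kb from the lower end of the window (x axis), with 1 point per library that lists a peak (the highest in the region), points of a region spread sideways for sight. Tall regions are few, such as that of HORMAD1 with 91, 75, 25 and 61, while the added points of treated replicate 1 in BRDT and CTCFL lie between 4 and 8.

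Counted over the 10 windows, 6 regions were gained and 3 lost. The gained regions, in BRDT, CTCFL and ASZ1, were 6.67% of the 90 regions, against 4.21% of all 373425 regions. The lost regions, in BRDT, TDRD1 and CTCFL, were 3.33%, against 3.35% of all regions. Both shares are read as near the background, and presence in 2 lists against 2 allows no test that could pass a threshold. No gained region had a coverage above 8, and the median over all gained regions was 6 in each treated library. Regions in all 4 lists made up 26.7% of the windows' regions and 28.2% of all, and regions in 1 list 47.8% and 45.9%. Of the 43 regions in 1 list, 26 were in treated replicate 1, 7 in treated replicate 2, 2 in untreated replicate 1 and 8 in untreated replicate 2.

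The 24 regions in all lists were more often higher than lower in treated cells once libraries were scaled by their median, and more often lower when scaled by background coverage. Both treated values exceeded both untreated values in 14 (58.3%), against 27.2% of all regions in all lists. Of these 14, 6 lay in the STK31 window, and regions of 1 window are not replicates. Both treated values lay below both untreated values in 2 (8.33%), in the HORMAD1 and TDRD1 windows, against 22.2% of all regions in all lists. The median difference was 0.38, with a range from −0.64 to 1.25, and over all such regions it was 0.06. Of the 16 regions without overlap, 12 moved by over 1.5 times when 1 library was left out, and in 0 did the difference change sign. Where groups do not overlap, leaving out a library can change the sign only through shifted library medians. The count of 0 is therefore no measure of stability. Of the 8 with overlap, 5 changed sign. The direction depended on the scaling. In coverage as such, both treated libraries were higher in 1 and lower in 6 of the 24. Scaled by background coverage, 2 were higher and 6 lower, with a median of −0.21, while 5.86% and 48.0% of all regions did so, with a median of −0.53. With the authors' score 12 were higher and 4 lower, while 24.3% and 25.7% of all regions were, and the median was 0.42 against −0.01 over all.

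Height itself moved with this difference. In the lowest quartile of all shared regions by mean coverage (4 to 10.8), 46.1% were higher and 4.63% lower in treated cells, and in the highest quartile (30 to 530) 13.0% were higher and 41.1% lower. Of the germline regions 7 lay in the lowest quartile, with 3 higher, and 8 in the next (11 to 17.2), with 6 higher and 28.5% higher over all. In the third quartile (17.5 to 29.8) 3 of 4 were higher, against 20.3% over all. In the highest quartile 2 of 5 were higher and 2 lower. The part of height in the count over all 24 was not tested.

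**Figure D4:**
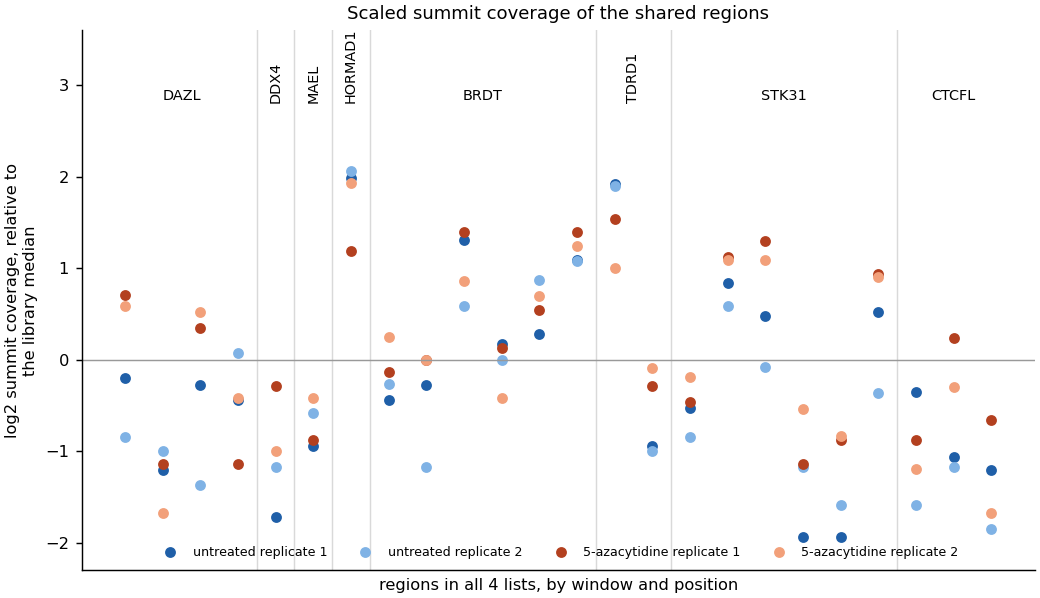
Summit coverage of the 24 regions in all lists (y axis, log2 relative to the median of the library over all such regions), in order of window and position (x axis), 1 point per library. In the 6 STK31 regions both treated points lie above both untreated points, which they do not when scaled by background coverage, and in HORMAD1 and the first TDRD1 region below them.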

How the data were processed

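ATAC-seq was measured in 2 untreated and 2 treated libraries of BCPAP cells. Tools named in the submitters' processing notes are MACS2, Picard, Bowtie2 and Trimmomatic, with hg19 as the build. Their versions and settings, filters on peaks and any shift of read ends are not given in these sources. The deposited lists hold 1 set of peaks per library, nearly all set to 500 bp. The deposited score of a peak adds up to the same total in every list. The deposited fold enrichment and −log10 p and q values are the authors' own. They were used to describe, rank or filter peaks. Because each fold value is a whole number of equal steps (tolerance 0.01 step), summit coverage is the fold over the step, minus 1. The number of reads is unknown, which limits precision to the coverage itself.

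Peaks on chromosomes 1 to 22 and X sharing at least 1 bp were merged to regions. Scaled coverage is the log2 of the highest peak in a region over the median of its library in the regions of all 4 lists. The members and gene lists were chosen with earlier results of these data known, and the motifs with the promoter sequences at hand. Named regions are, per window, the shared region with the highest scaled coverage, all gained and lost regions, and the 5 largest rises and falls without overlap; other regions were named after their values were seen. Counts were tested per window by an exact permutation test over the 6 assignments of 4 libraries. Alternatives were equal list lengths, a −log10 q of at least 5, other window extents, merging of peaks up to 150 bp apart, a shared length of 50% of both peaks, other height scales, omission of each library and the replicate block. For equal lengths the 221110 peaks of highest −log10 p were kept per list. Ties were ordered by a single random draw, so which of the tied weak peaks stayed was random. The counting was tested on simulated data. Neighbouring genes come from a RefSeq table on GRCh38.p14, by name only. Figures were drawn with matplotlib 3.10.9, and values computed with scipy 1.17.1, pandas 2.3.3 and numpy 2.4.6 under Python 3.11.15.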

Additional observations from a re-analysis of the deposited data

How the results depend on the processing

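The summed peak number, with a log2 ratio of treated to untreated of 0.33, was 0.03 with equal list lengths and turned to −0.30 at a −log10 q of at least 5. Leaving out each library gave −0.0159 to 0.60, the lowest without treated replicate 1. Gained regions fell from 6 of 90 to 3 of 79 with equal list lengths and to 0 of 34 at the stricter q. Of all regions 4.21%, 3.2% and 2.23% were gained in these settings. Leaving out a library gave 6 to 32 gained of 90, against 6.15% to 23.5% of all regions. Lost regions went from 3 of 90 to 6 of 79 with equal list lengths and to 1 of 34 at the stricter q. Of all regions 3.35%, 4.58% and 6.88% were lost there. With windows trimmed by 10 kb 1 of 65 was lost. Without a library, where fewer lists have to lack or hold a peak, 5 to 11 of 90 were lost. Over all regions the lost share was then 5.27% to 11.3%. Merging peaks up to 150 bp apart made the SYCP3 peaks a gained region, with 8 gained and 2 lost of 84. Of all regions 4.08% were then gained and 3.45% lost. The median scaled difference of shared regions, 0.38, ranged from 0.21 to 0.40 without a library and turned to −0.21 when scaled by background coverage. Among single windows, the difference of mean peak numbers changed sign at the stricter q in DAZL (−1), ASZ1 (−0.5) and CTCFL (−2), with equal list lengths in CTCFL (−2.5), with windows widened by 20 kb in DAZL (−0.5) and TDRD1 (0.5) and with trimmed windows in DDX4 (0.5). In CTCFL it ranged from −5 to 9 without a library. The BRDT difference kept its sign in every setting listed here, from 1 at the stricter q to 10.5 without treated replicate 2. Leaving out a library could not change this sign, since the BRDT groups did not overlap in the main setting. With the replicate block the ratio of summed peaks was 0.30, from 0.72 in replicate 1 and −0.12 in replicate 2, and the median scaled difference was 0.38. The numbers mark no shared batch in the labels, and same-numbered libraries did not deviate together over the regions in all lists (r = −0.05). The cause of these changes was not tested. Weak peaks near a coverage of 4 limit what can be called gained or lost.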
